A study of Mus musculus with 12 samples.

Results

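The BCL2 family genes described here are 10 genes chosen by name as the core of the mitochondrial death switch, out of 55216 genes in the count table. They are the pro-survival genes Bcl2, Bcl2l1 and Mcl1, the effectors Bax and Bak1, and the BH3-only genes Bid, Bcl2l11, Bbc3, Pmaip1 and Bik. All 10 passed the filter on low counts, but Bik did so only through the libraries that contained oxaliplatin, so its passing is not independent of its difference. The RNA came from Myc-CaP cells, an established FVB/NJ mouse prostate cancer line that overexpresses Myc, 48 h after treatment. The 12 libraries form 6 groups of 2. Ctrl cells were untreated. Oxali cells received oxaliplatin, a platinum drug that crosslinks DNA, at 2 μM. IFN200 and IFN2000 cells received interferon γ (IFNγ) labelled as 200 or 2000 pg, which the study's text gives per mL. Combo200 and Combo2000 cells received both agents. The whole experiment used 1 cell line at 1 time, and doses that the study chose to cause little death. According to the study's text vital cells were sequenced, so cells that had died are not described here. Nothing in the labels says that the libraries of a group were separate cultures, so p-values measure the spread between these libraries, which may be technical.

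Proteins of the BCL2 family decide at the mitochondrial outer membrane whether a cell starts apoptosis. BAX and BAK form pores that let cytochrome c escape and activate caspases, BCL2, BCL-XL (from Bcl2l1) and MCL1 hold them in check, and BH3-only proteins either block these guardians or activate BAX and BAK directly. DNA damage is known to raise several BH3-only genes, some of them through p53, but many members are also set by translation, protein decay and phosphorylation, none of which RNA counts show.

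Library totals ran from 18749975 to 25931516 counts, and a count of 0 allows up to 3 counts, or 0.111 to 0.167 CPM (read counts adjusted for library size by TMM), which covers counting error only. For the single treatments the title of a library and its agent label name different treatments: libraries titled IFN200 carry the agent Oxali, those titled IFN2000 carry IFNγ 200 pg, and those titled Oxali carry IFNγ 2000 pg. The titles were used. A list of 8 p53 targets had a mean log2 ratio to Ctrl of 0.54 and 0.52 in the libraries titled Oxali and of -0.03 to 0.08 in those titled IFN200 or IFN2000. A list of IFNγ targets had a mean log2 ratio of 1.33 and 1.18 in the libraries titled IFN200, of 3.95 and 3.91 in those titled IFN2000 and of 1.69 and 1.75 in those titled Oxali. Of 7 markers of prostate tumour cells, 3 passed the filter on low counts, and 3 or 4 were above 3 counts in each library. Among them Myc was at 2268 to 3835 counts and Krt8 at 353 to 628, but Epcam had no count in any library. Markers of other cells stood out in 2 libraries. IFN2000 replicate 2 held 19.7 CPM of 12 T cell genes, 11 of them above 3 counts. The other libraries without Oxali held 0.663 to 1.04 CPM and those with it 3.53 to 6.19 CPM. In those with Oxali Cd3d and Cd8a had no count, but 2 of the 3 T cell genes tested were called higher in Oxali against Ctrl. The median log2 change of these 3 was 1.96, and 34.8% of all genes were called higher. At such low levels without Oxali these genes may have passed the filter through the libraries with Oxali. Their calls may therefore not be independent of their passing, which was not tested. IFN200 replicate 1 held 7.81 CPM of 8 heart muscle genes, against 0.835 to 1.27 CPM in the other libraries without Oxali and 3.06 to 5.94 CPM in those with it. Member calls against Ctrl and between the IFNγ doses that were lost without these libraries are given with their values, and the part of the markers in the Oxali comparisons was not tested. In bulk RNA, fewer cells with a transcript and less transcript per cell cannot be told apart.

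Oxali moved the family in both directions. Among pro-survival genes Bcl2 rose and Mcl1 fell slightly, both effectors fell, and of the BH3-only genes Pmaip1, Bcl2l11, Bid and Bik rose while Bbc3 fell. In all, 9 of 10 members were called (5 higher, 4 lower) by edgeR's quasi-likelihood test at a Benjamini-Hochberg adjusted p under 0.05. Bik is among the 5 higher, and its call is not independent of its passing the filter. The background was high, with 67.6% of the 13177 genes tested called in the same comparison, 34.8% higher and 32.8% lower, so the number of members called says little about the family. With a length and GC correction 39.6% of all calls were higher, against 51.5% without it. The median log2 change was 0.36 over the members and 0.02 over all genes tested. The description therefore turns on the direction and size of each member.

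**Figure D1:**
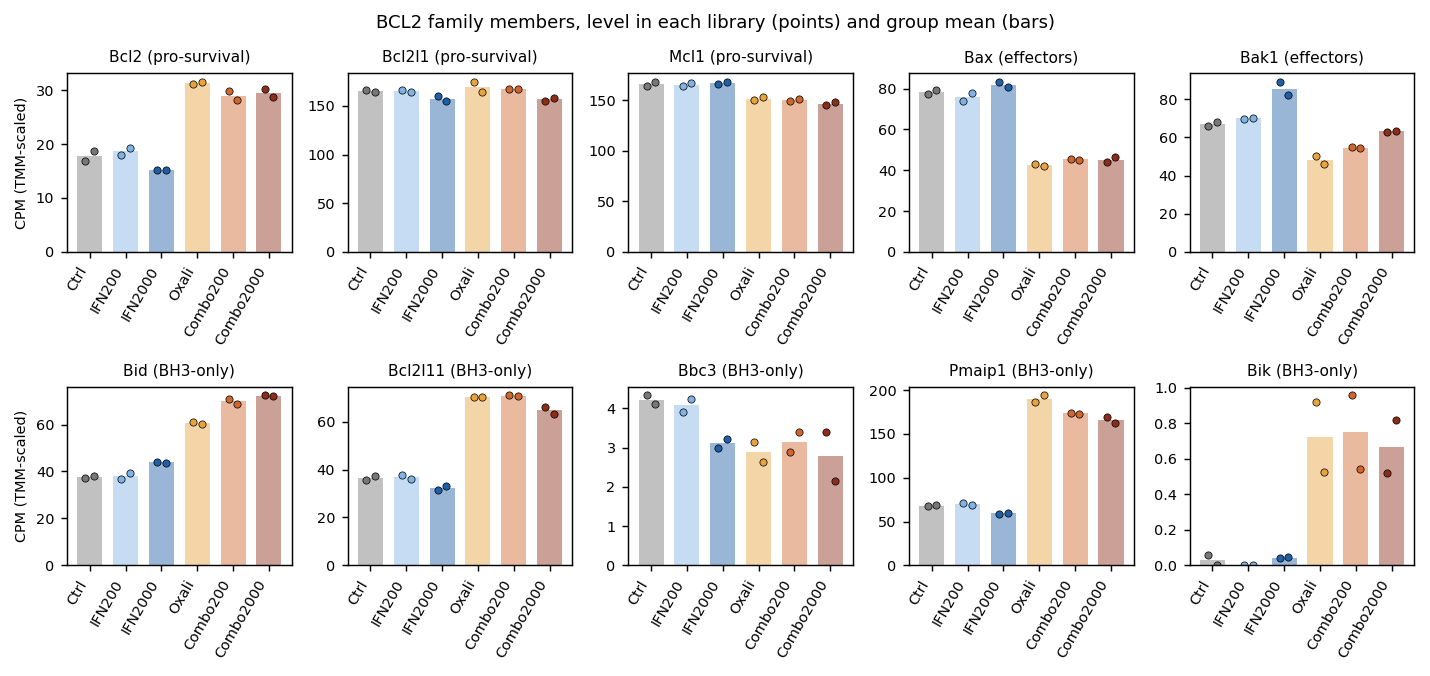
Level of each of the 10 members in CPM, with each axis starting at 0, for the 6 groups; points are the 12 libraries and bars the mean of 2 libraries. Pmaip1, Bcl2l11, Bid and Bcl2 stand higher, and Bax and Bak1 lower, in both Oxali libraries than in both Ctrl libraries, while Bcl2l1 overlaps.

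Among the pro-survival genes, Bcl2 (chromosome 1, 106538178 to 106714274, GRCm38), which gives the family its name, was at 16.9 and 18.8 CPM in Ctrl and at 31.1 and 31.5 CPM in Oxali. Both Oxali libraries lay above both Ctrl libraries, and the log2 fold change was 0.81 (SE 0.07, edgeR adjusted p = 4.13e-09). Bcl2 stayed at 28.2 to 30.2 CPM in the 4 combination libraries. Bcl2l1 (chromosome 2, 152780668 to 152831728), which encodes BCL-XL, was at 166 and 165 CPM in Ctrl and at 175 and 164 CPM in Oxali. The groups overlapped and no difference was called, with a log2 fold change of 0.03 and a 95% interval of -0.05 to 0.12, although a length and GC correction gave -0.18 and a call (adjusted p = 8.29e-05). That correction also lowered the median of all genes, and relative to that median Bcl2l1 lay at -0.075. Mcl1 (chromosome 3, 95658788 to 95663176) encodes a short-lived guardian that NOXA binds. Its level was 164 and 168 CPM in Ctrl and 150 and 153 CPM in Oxali, a log2 fold change of -0.13 (SE 0.04, edgeR adjusted p = 0.00383). The groups did not overlap, yet with upper-quartile scaling the Mcl1 difference was -0.08 and was not called (adjusted p = 0.0683). Bcl2l1 gives rise to long and short splice forms of opposed function, which counts per gene do not separate.

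Both effectors fell with Oxali. Bax (chromosome 7, 45461697 to 45466898) was at 77.2 and 79.3 CPM in Ctrl and at 43.1 and 42.1 CPM in Oxali, and no Oxali library reached a Ctrl library. Its log2 fold change was -0.88 (SE 0.05, edgeR adjusted p = 3.49e-12), or 0.544 of the Ctrl level, the largest fall among the members. Bak1 (chromosome 17, 27019810 to 27029009) was at 66.2 and 68.0 CPM in Ctrl and at 50.03 and 46.1 CPM in Oxali, again without overlap. The log2 fold change of Bak1 was -0.48 (SE 0.05, edgeR adjusted p = 9.2e-08). Bax is a textbook p53 target, and its direction here was opposite to that of 4 of the 8 p53 targets used for the label check, which rose (Cdkn1a by 1.02, Phlda3 by 1.09, Eda2r by 1.16 and Trp53inp1 by 1.62 on the log2 scale), while Ccng1 and Aen fell by 0.31 and 0.38. The exons of Bak1 share 437 and 177 bases with Ggnbp1 on the opposite strand, which had 8 to 28 counts per library.

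The BH3-only genes held both the largest rise and a fall. Pmaip1 (chromosome 18, 66458533 to 66465565) encodes NOXA, which binds mainly MCL1. It was at 67.4 and 68.6 CPM in Ctrl and at 186 and 194 CPM in Oxali, a 2.80-fold level (log2 fold change 1.49, SE 0.04, edgeR adjusted p = 3.75e-16). Bcl2l11 (chromosome 2, 128126038 to 128162547) encodes BIM, an activator of BAX and BAK that binds all the guardians. Its level went from 35.7 and 37.3 CPM in Ctrl to 70.2 and 70.5 CPM in Oxali, a log2 fold change of 0.95 (SE 0.05, edgeR adjusted p = 1.89e-12). Bid (chromosome 6, 120891930 to 120916853), whose protein is cut by caspase-8 and links death receptors to mitochondria, was at 37.1 and 38.0 CPM in Ctrl. In Oxali it was at 61.1 and 60.4 CPM (log2 fold change 0.69, SE 0.05, edgeR adjusted p = 1.41e-10). None of these 3 genes had overlapping groups. With 2 libraries a group that is a weak mark: in IFN2000 against Ctrl 8 members did not overlap while 4 were called. The share of all genes without overlap is not given here. The exons of Bid share 628 bases with Bcl2l13 on the opposite strand, which had 2102 to 2986 counts per library and itself changed by -0.12, against the direction of Bid.

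The other BH3-only genes were low. Bbc3 (chromosome 7, 16308393 to 16318205), which encodes PUMA, a strong killer and p53 target, was at 4.34 and 4.10 CPM in Ctrl and at 3.13 and 2.62 CPM in Oxali. It was called lower with a log2 fold change of -0.55 (SE 0.20, edgeR adjusted p = 0.0189). That call rested on 55 to 81 counts per library. It was lost with DESeq2 (adjusted p = 0.11) and without Ctrl replicate 1 (0.0814), Ctrl replicate 2 (0.0511) or Oxali replicate 2 (0.124), while the length and GC correction moved it to -0.88 (adjusted p = 0.000201). Bik (chromosome 15, 83526862 to 83544634), whose protein sits largely on the endoplasmic reticulum, had 1 and 0 counts in Ctrl, none in IFN200 and 1 in each IFN2000 library. The Oxali libraries had 20 and 11 counts, the Combo200 libraries 22 and 14, and the Combo2000 libraries 14 and 19. With Ctrl set to 3 counts per library, mean Bik was 4.53-fold that level in Oxali, 4.71-fold in Combo200 and 4.19-fold in Combo2000. These values leave out counting error in the libraries with Oxali. Even there the level of Bik stayed under 1 CPM.

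**Figure D2:**
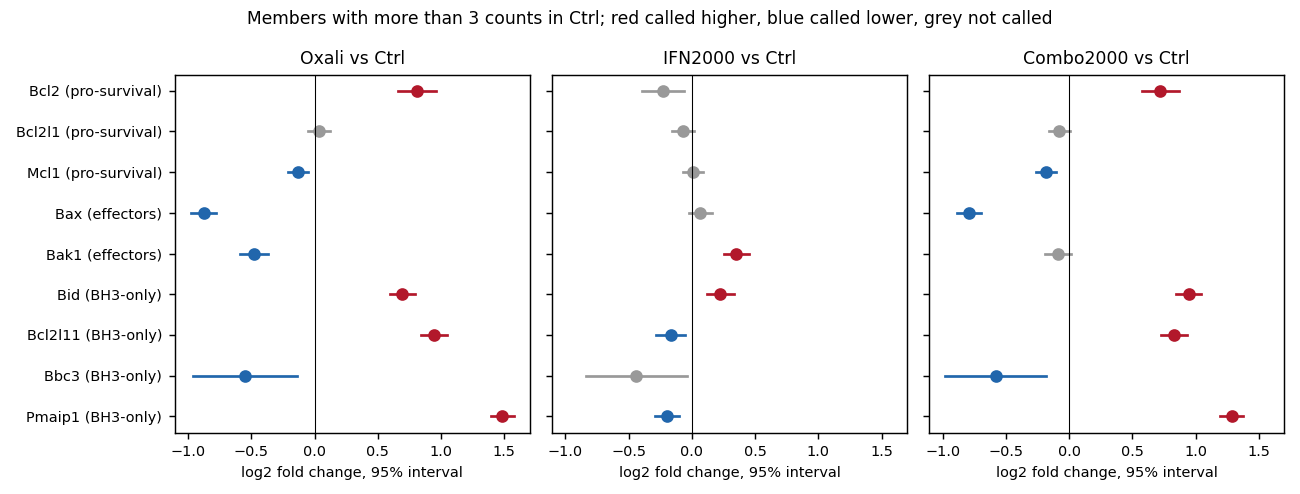
Log2 fold change against Ctrl with its 95% interval for the 9 members other than Bik, in Oxali, IFN2000 and Combo2000; red was called higher, blue lower and grey was not called. With Oxali the points run from -0.88 (Bax) to 1.49 (Pmaip1), while with IFN2000 they lie between -0.44 and 0.35.

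Promoters are shown for Bax, Bbc3 and Bcl2l11, because these members fell, fell and rose with Oxali and their windows hold letters that MYC, p53 or FOXO factors are known to read. RefSeq promoter windows (250 bases before to 50 after a start, GRCm38.p6, a C57BL/6J sequence while the cells are FVB/NJ) were given for 8 of the 10 members, 13 windows in all. Each sequence is written 5′ to 3′ along the gene, and capitals mark the matches found on either strand. The Bax window (chr7:45466849-45467148, minus strand) has CACGTG, the letters of an E-box that MYC binds, at -9 and 35 from its start, and a p53 half-site match at -201. A Bbc3 window (chr7:16310181-16310480, plus strand), at a start inside the gene, has CACGTG at -64. Unlike those of the Bax and Bcl2l11 windows shown, the last bases of this window were found in no GENCODE transcript of the gene. The Bcl2l11 window (chr2:128125788-128126087, plus strand) has GTAAACA, the letters of a FOXO site, at -227.
Bax: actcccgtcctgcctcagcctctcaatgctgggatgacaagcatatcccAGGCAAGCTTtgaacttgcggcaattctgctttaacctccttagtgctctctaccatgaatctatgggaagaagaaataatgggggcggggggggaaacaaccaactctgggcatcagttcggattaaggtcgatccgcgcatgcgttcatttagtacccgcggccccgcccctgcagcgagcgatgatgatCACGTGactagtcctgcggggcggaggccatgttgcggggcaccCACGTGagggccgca
Bbc3: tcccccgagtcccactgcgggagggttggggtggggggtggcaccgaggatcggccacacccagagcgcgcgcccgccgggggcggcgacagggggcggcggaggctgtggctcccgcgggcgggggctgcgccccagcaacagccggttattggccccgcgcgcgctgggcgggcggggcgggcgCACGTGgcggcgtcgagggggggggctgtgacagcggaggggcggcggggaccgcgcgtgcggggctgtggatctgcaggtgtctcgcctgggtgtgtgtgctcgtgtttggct
Bcl2l11: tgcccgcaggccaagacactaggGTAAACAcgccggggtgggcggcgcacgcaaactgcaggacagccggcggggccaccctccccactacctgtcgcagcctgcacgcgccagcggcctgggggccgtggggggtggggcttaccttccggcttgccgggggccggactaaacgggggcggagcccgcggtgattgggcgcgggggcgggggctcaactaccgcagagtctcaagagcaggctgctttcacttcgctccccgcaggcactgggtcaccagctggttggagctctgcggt

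CACGTG was in 7.15% of the 32851 promoter windows given for all genes, GTAAACA in 3.65% and the p53 half-site in 8.36%. Among the members CACGTG was in 2 of 13 windows (Bax and Bbc3), GTAAACA in 2 (Bcl2l11 and another Bbc3 window), the p53 half-site in 1 (Bax) and an NF-κB site in 2 (Bbc3 and Bcl2l1), which is in 8.46% of all windows. TTCNNNGAA, the letters STAT factors read, was in 8.3% of all windows and the IRF motif (GAAA followed by 2 bases of any kind and GAAA again) in 3.44%. Neither these nor TGATGNAA, an ATF4 and CHOP site held by 3.97% of windows, was in a member window. All motifs were searched on both strands, and no marked matches overlapped. A match describes the letters and does not show that a factor was bound.

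Set side by side per kilobase of exon, the members differ in level. In Ctrl, Bax (49.7 CPM per kb) and Mcl1 (48.6) were highest and close to each other, followed by Bcl2l1 (36.1), Bak1 (27.9) and Pmaip1 (24.9). Bid (10.6), Bcl2l11 (4.54), Bbc3 (1.99), Bcl2 (1.95) and Bik (0.0175, from 1 and 0 counts) followed, with Bbc3 and Bcl2 near the same level. In Oxali, Pmaip1 was highest at 69.7 CPM per kb, ahead of Mcl1 (44.3) and Bcl2l1 (36.9), while Bax was at 27.0 and Bak1 at 20.0. The rise of Bcl2 therefore ended at 3.42 CPM per kb, far below Mcl1 and Bcl2l1. Summed per kb, the pro-survival genes went from 86.6 ± 0.84 in Ctrl to 84.6 ± 1.11 in Oxali (SD, n = 2), the effectors from 77.5 ± 1.48 to 47.0 ± 1.60, and the BH3-only genes from 42.0 ± 0.53 to 97.4 ± 1.62.

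The ratio of pro-survival to effector plus BH3-only level, a description of RNA and not of protein, was 0.728 and 0.721 in Ctrl, 0.724 and 0.716 in IFN200, and 0.658 and 0.676 in IFN2000. The Oxali libraries had 0.591 and 0.580, the Combo200 libraries 0.571 and 0.580 and the Combo2000 libraries 0.544 and 0.557, so each library with Oxali lay below each library without it. That order rested on Pmaip1. With Pmaip1 left out of the sum, a choice made after seeing the data, the ratio was 0.920 and 0.909 in Ctrl and 1.12 and 1.15 in Oxali, the opposite direction, since Bax and Bak1 fell by more than Bid, Bcl2l11 and Bik rose.

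**Figure D3:**
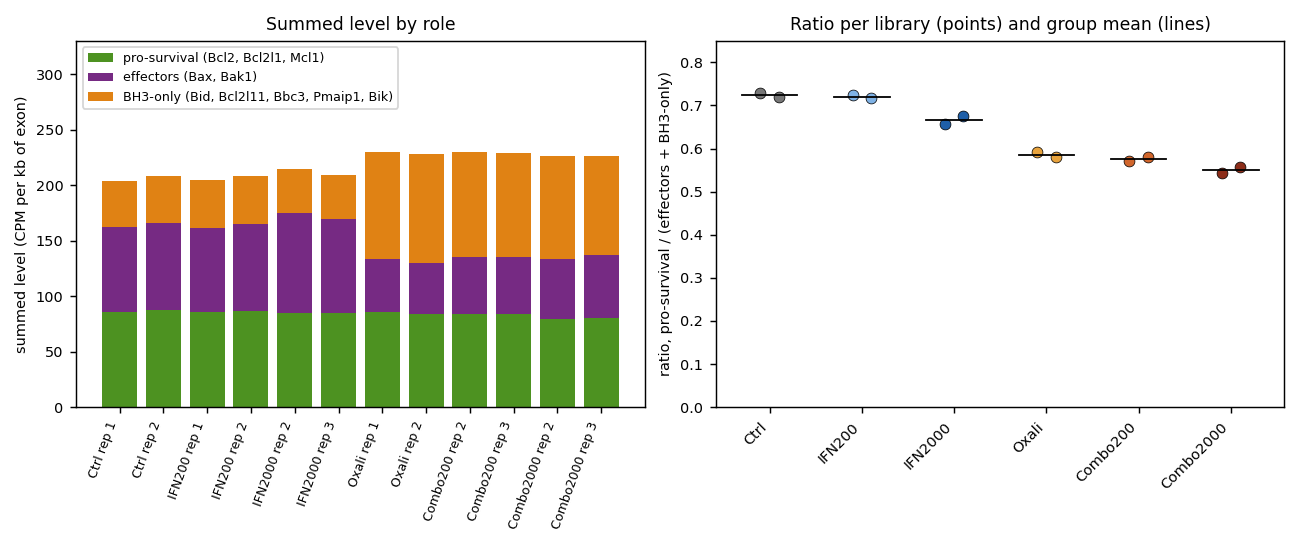
Left, the summed level of the pro-survival, effector and BH3-only members in each library in CPM per kb of exon; right, their ratio per library (points) and group mean (lines). The BH3-only sum stands at 41.7 and 42.4 in Ctrl and at 96.3 and 98.6 in Oxali, mostly through Pmaip1, and the ratio falls from 0.724 to 0.586 on average.

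With IFNγ alone no member was called against Ctrl at the lower dose, where 0.114% of all genes were, and 4 of 10 were called at the higher dose. At the lower dose no member had an unadjusted p under 0.05, as 801 of the 13177 genes did, and DESeq2 called no member. At the higher dose the 4 of 10 members compare with 16.9% of all genes. Bak1 was at 89.2 and 82.0 CPM in IFN2000 against 66.2 and 68.0 in Ctrl, a log2 fold change of 0.35 (SE 0.05, edgeR adjusted p = 7.22e-05). Bid was at 44.1 and 43.8 CPM against 37.1 and 38.0 (0.23, SE 0.05, edgeR adjusted p = 0.00445). Pmaip1 was at 58.9 and 59.6 CPM, below both Ctrl libraries, and was called lower (-0.20, SE 0.05, edgeR adjusted p = 0.00606), as was Bcl2l11 at 31.6 and 33.3 CPM (-0.17, SE 0.05, edgeR adjusted p = 0.0384). Bcl2 stood at 15.3 and 15.2 CPM (-0.23) and missed the threshold (edgeR adjusted p = 0.0518), and so did Bbc3 at 3.00 and 3.21 CPM (-0.44, edgeR adjusted p = 0.124).

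The rises of Bak1 and Bid were also called with the 2 libraries that held markers of other cells left out together (0.30 and 0.23, edgeR adjusted p = 0.000938 and 0.0199), an alternative chosen after seeing the data. The falls of Pmaip1 and Bcl2l11 then had values of -0.18 and -0.12 and were not called (edgeR adjusted p = 0.0557 and 0.313). The fall of Pmaip1 was also lost without Ctrl replicate 1 (0.057) or Ctrl replicate 2 (0.0801), that of Bcl2l11 in 12 of the 13 alternatives run, other scalings included (0.0526 and 0.0601), and the rise of Bid without Ctrl replicate 1 (0.0576). Both IFN2000 libraries differed from Ctrl along gene length, with a Spearman rho of -0.304 and -0.164 between length and the log2 ratio to Ctrl across 13043 genes, against -0.0134 to 0.145 in the other groups. Bcl2 and Bcl2l11 are the longest members, at 9.157 and 8.029 kb of exon, and the part of the length trend in their values was tested only by a length and GC correction, in which Bcl2l11 changed by -0.12 (edgeR adjusted p = 0.144).

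Between the doses, IFN2000 against IFN200, 5 members were called against 22.3% of all genes. Bak1 rose by 0.29 and Bid by 0.21 on the log2 scale, while Bcl2, Bcl2l11 and Pmaip1 changed by -0.29, -0.19 and -0.24. With both libraries that held markers of other cells left out, Bak1 was the 1 member called (0.23, edgeR adjusted p = 0.0344). Bcl2 then stood at -0.33 (0.0966), Pmaip1 at -0.20 (0.0868), Bid at 0.17 (0.188) and Bcl2l11 at -0.11 (0.478). With all libraries, the Bcl2 call was also lost with DESeq2 (adjusted p = 0.0659) and with the length and GC correction (-0.20, edgeR adjusted p = 0.0694). The Bcl2l11 call was lost with both too (0.108 and 0.11).

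In both combinations Pmaip1, Bcl2l11, Bid, Bcl2 and Bik were higher and Bax and Mcl1 lower than in Ctrl, and in all 8 of 10 were called against Ctrl in Combo200 (68.7% of all genes) and in Combo2000 (69.2%). These comparisons share the Ctrl libraries with the one for Oxali, and Bik, counted among the 8, passed the filter only through libraries with Oxali. Pmaip1 stood at 174 and 173 CPM in Combo200 and 169 and 162 CPM in Combo2000 (log2 fold changes of 1.35 and 1.28 against Ctrl), and Bax at 45.5 and 45.3, then 44.1 and 46.5 CPM (-0.79 in both). Bcl2l11 was at 71.2 and 70.8 CPM, then 66.2 and 63.4 CPM (0.96 and 0.83). Bcl2 was 0.70 and 0.72 above Ctrl, and Mcl1 was at -0.14 and -0.18. Bid was higher than in Oxali, at 71.1 and 68.8 CPM in Combo200 and 72.6 and 72.2 CPM in Combo2000 (0.90 and 0.95 against Ctrl). Bcl2l1 was called in neither combination (0.02 and -0.08), but in both with a length and GC correction (-0.21 and -0.33). Relative to the median of all genes under that correction, Bcl2l1 lay at -0.092 and -0.194. Bbc3 was called lower in Combo2000 (-0.58, SE 0.19, edgeR adjusted p = 0.0112) and not in Combo200 (-0.42, edgeR adjusted p = 0.0549), where 5 of 12 alternatives called it, the length and GC correction among them (-0.75, adjusted p = 0.000631). Its call in Combo2000 was lost without Combo2000 replicate 3 (-0.30, adjusted p = 0.158) or Ctrl replicate 1 (0.0584) and with DESeq2 (0.0785).

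Of the 2 effectors, only Bak1 was called higher in Combo2000 than in Oxali, while in Combo200 against Oxali it was not called (0.18, edgeR adjusted p = 0.0896). Bak1 was at 50.03 and 46.1 CPM in Oxali, at 55.1 and 54.3 CPM in Combo200 and at 62.9 and 63.6 CPM in Combo2000, without overlap between these groups. Against Ctrl the log2 fold change was -0.48, -0.30 and -0.09 in the 3 groups, and the last was not called (edgeR adjusted p = 0.132, 95% interval -0.19 to 0.02). With the length and GC correction the difference of Bak1 in Combo2000 was called (-0.34, or -0.203 relative to the median of all genes). Bax, the other effector, was not called against Oxali in either combination (0.09 in both, 95% intervals -0.01 to 0.20 and -0.02 to 0.19). Its levels did not overlap with those in Oxali either. In IFN2000 against IFN200 Bax changed by 0.11 and was not called (edgeR adjusted p = 0.0625), though 3 of 13 alternatives called it.

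**Figure D4:**
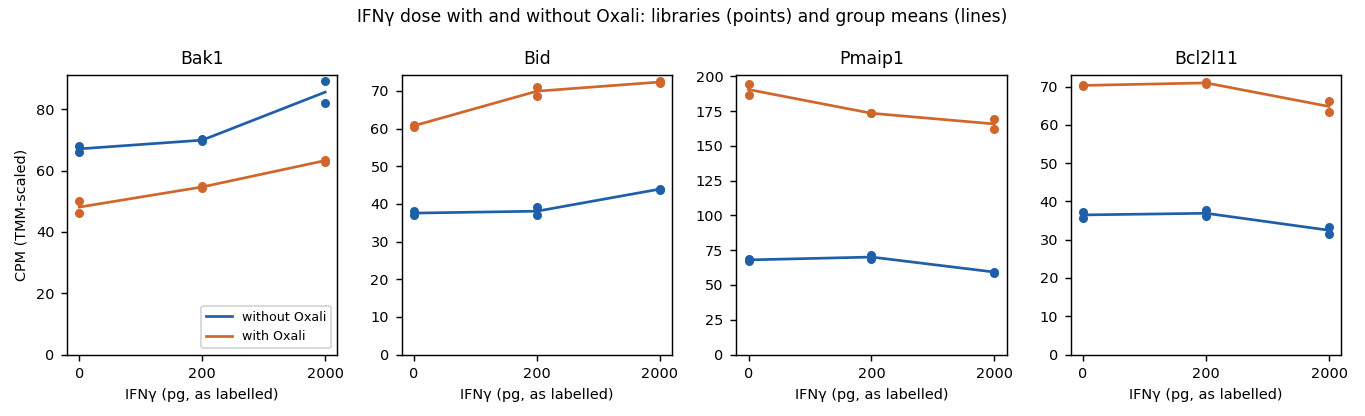
Level in CPM of Bak1, Bid, Pmaip1 and Bcl2l11 against the labelled IFNγ dose (0, 200 and 2000 pg, evenly spaced), without Oxali (blue) and with Oxali (orange); points are libraries and lines join group means. Bak1 and Bid are higher at 2000 pg than at 0 on both lines, and Pmaip1 is lower.

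Added to Oxali, IFNγ changed few members. In Combo2000 against Oxali 3 of 10 were called, against 4.36% of all genes: Bak1 rose by 0.39 (SE 0.05, edgeR adjusted p = 2.02e-05), Bid rose by 0.25 (SE 0.04, edgeR adjusted p = 0.000626) and Pmaip1 changed by -0.20 (SE 0.04, edgeR adjusted p = 0.00288). The Pmaip1 call was lost without Oxali replicate 2 (0.0771) or Combo2000 replicate 3 (0.0901). In Combo200 against Oxali 1 member was called, against 1.83% of all genes: Bid rose by 0.20 (SE 0.04, edgeR adjusted p = 0.012), a call that none of the fits without 1 of the 4 libraries kept (adjusted p = 0.063 to 0.156), nor DESeq2 (0.27). Between the combinations Bak1 alone was called, against 1.37% of all genes (0.21, SE 0.05, edgeR adjusted p = 0.0318), and no fit without 1 of the 4 libraries kept it (adjusted p = 0.201 to 0.435). With IFNγ present in both groups, Oxali moved 8 members at 200 pg (Combo200 against IFN200, 69.9% of all genes) and 8 at 2000 pg (Combo2000 against IFN2000, 72.3%), in each case all but Bcl2l1 and Bbc3. Bik, counted at both doses, passed the filter only through libraries with Oxali. With the length and GC correction Bcl2l1 and Bbc3 were called lower too, Bbc3 at -0.85 and -0.44 instead of -0.37 and -0.14 and Bcl2l1 at -0.22 and -0.25. Relative to the median of all genes, Bbc3 then lay at -0.743 and -0.314 and Bcl2l1 at -0.110 and -0.124.

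An interaction, (Combo minus Oxali) minus (IFNγ minus Ctrl), asked whether the response of a member to IFNγ differed with Oxali. No member was called at 200 pg (0.698% of all genes, smallest edgeR adjusted p = 0.262) or at 2000 pg (2.72%, smallest edgeR adjusted p = 0.494), and DESeq2 called none at either dose. At an unadjusted p under 0.05 there were 3 members at 200 pg (Bax, Bid and Pmaip1) and 0 at 2000 pg. Of the 13177 genes tested, 1304 and 2194 were under that threshold. For Bak1 at 2000 pg the interaction was 0.04 on the log2 scale with a 95% interval of -0.10 to 0.19. Over the 9 members other than Bik the intervals at 2000 pg ran from -0.17 to 0.99, widest for the low gene Bbc3.

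The wider family was read from a list of 15 further genes, of which 8 passed the filter. In Oxali against Ctrl 2 of them rose and 4 fell, where 67.6% of all genes were called, and the median log2 change was 0.01. Bnip3, a hypoxia-induced mitophagy receptor with a BH3-like domain, was at 56.7 and 49.3 CPM in Ctrl and at 22.1 and 19.99 CPM in Oxali, so its log2 fold change was -1.33 (SE 0.09, edgeR adjusted p = 1.03e-10). With IFN2000 it rose by 0.33 (edgeR adjusted p = 0.00581). That rise was lost without Ctrl replicate 2 (0.24, adjusted p = 0.119). Its relative Bnip3l changed by -0.35, the pro-survival Bcl2l2 (BCL-W) by -0.37 and Bcl2l13 by -0.12. Bok, a BAX-like gene, stood at 7 and 6 counts without treatment and at 23 and 26 with Oxali (1.72, SE 0.44, edgeR adjusted p = 0.00173). Like Bik it passed the filter only through the libraries with Oxali. Its call, counted among the 2 rises, is therefore not independent of its passing. Bmf, a BH3-only gene tied to the cytoskeleton, rose by 0.37 (edgeR adjusted p = 0.00555), a call lost with DESeq2 (0.0793) and with the length and GC correction, which gave 0.20 (0.127). Bad (0.16) and Bcl2l12 (0.14) were not called. Bcl2a1a, Bcl2a1b, Bcl2a1d, Bcl2l10, Bcl2l14, Bcl2l15 and Hrk were at or near 0.

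Downstream of BAX and BAK, 10 genes of a list of 13 were tested in Oxali against Ctrl, of which 4 rose and 5 fell, against 34.8% and 32.8% of all genes. The 3 largest falls were Apaf1, the scaffold of the apoptosome (-0.69), Aifm1, a mitochondrial flavoprotein (-0.50), and Cycs, cytochrome c (-0.41). Among the rises were Birc2, an inhibitor of apoptosis protein (0.39), and Casp9, the initiator caspase of the apoptosome (0.20). The call for Casp9 was lost with DESeq2 (adjusted p = 0.195) and with a length and GC correction (0.02, adjusted p = 0.806). The median log2 change of this list was -0.18, against 0.02 over all genes.

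Among regulators of the family, 11 of the 14 tested genes of a list of 15 were called, 5 higher and 6 lower, with a median of 0.03, where 67.6% of all genes were called. Ddit3, which encodes the stress factor CHOP, stood at 4.71 ± 0.21 CPM in Ctrl and at 17.8 ± 0.94 CPM in Oxali (SD, n = 2) and rose by 1.91 on the log2 scale (SE 0.12, edgeR adjusted p = 3.83e-11). Mdm2, a p53 target that degrades p53, rose by 0.64 and the AP-1 subunit Jun by 0.41. Atf4, which acts upstream of CHOP, changed by -0.62, its target Chac1 by -0.97 and Huwe1, a ubiquitin ligase of MCL1, by -0.43. Trp53, encoding p53 itself, was at 0.10 and was not called (edgeR adjusted p = 0.057).

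**Figure D5:**
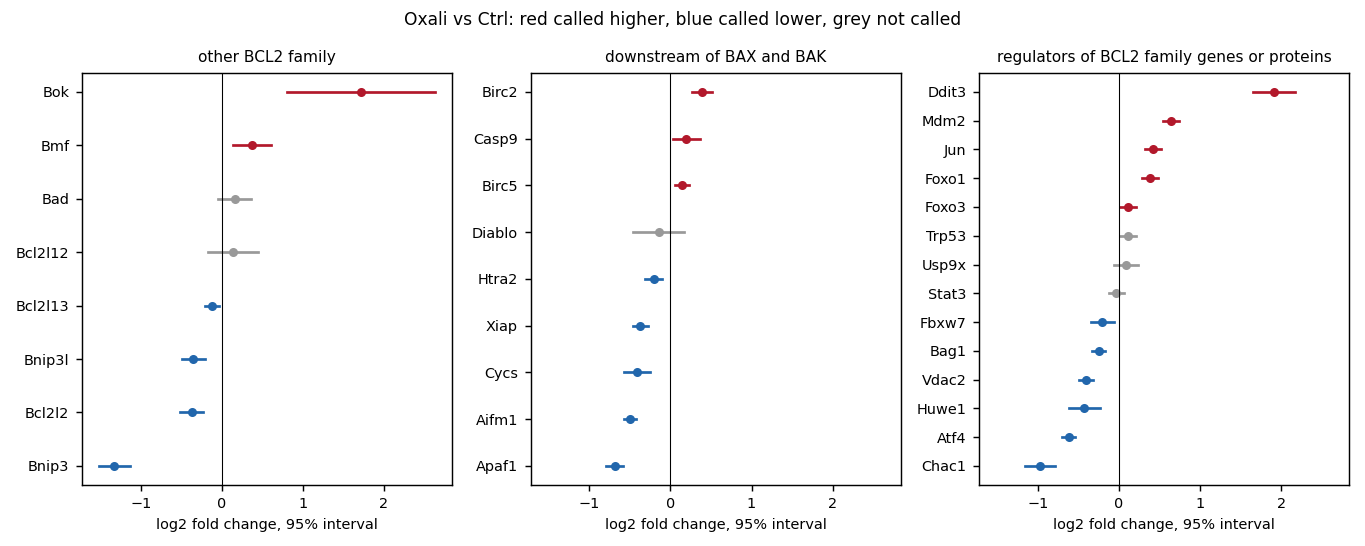
Log2 fold change of Oxali against Ctrl with its 95% interval for 8, 9 and 14 tested genes of the 3 further lists; red was called higher, blue lower and grey was not called. Bnip3, Apaf1 and Chac1 have the largest falls plotted in their lists, at -1.33, -0.69 and -0.97, and Bok, Birc2 and Ddit3 the largest rises, at 1.72, 0.39 and 1.91. Bok passed the filter only through libraries with Oxali.

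Many genes followed the members over the libraries. By Pearson r of log2 CPM over the 12 libraries, among 10475 genes, the closest to Pmaip1 were Enah (0.9985), Mcc (0.9981) and Jak2 (0.9980), and 2685 genes had an r above 0.9 with it. The closest to Bax were Txn1 (0.9984), Ckap4 (0.9984) and Arhgdia (0.9982), with 2926 genes above 0.9. The 12 points fall into those with and those without Oxali, so these values describe that split.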

How the data were processed

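Poly(A) RNA of 12 Myc-CaP samples was sequenced as stranded libraries. The authors deposited raw counts per gene symbol. According to the study's methods and notes, reads were aligned with STAR 2.7.3a to GRCm38 and counted with featureCounts against GENCODE models. Whether strand was used is not given in the sources used here. RSEM 1.3.0 is also named in the submitters' processing notes, without a role. All columns were used.

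Scaling was by TMM, and tests used edgeR 4.0.16 (quasi-likelihood test, R 4.3.3) after filterByExpr (minimum count 10, minimum total 15), which kept 13177 genes. All 12 libraries entered 1 model with a mean per group; 13 contrasts were tested, each with Benjamini-Hochberg adjustment over all genes and a threshold of 0.05. SE is the log2 fold change over the square root of F. For 2 against 2 libraries the smallest two-sided p of an exact permutation test is 0.333. Alternatives comprised 24 settings, including DESeq2 1.42.0, other scalings, a length and GC correction, a replicate block and leaving out each library. The procedure was tested on simulated data.

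The members, lists, label checks and tests were chosen with earlier results of these data known. All members, the detected further family genes, and the 3 largest called rises and falls of the other lists in Oxali against Ctrl are named. For the members with the largest called rise and fall (mean log2 CPM no lower than 1, which leaves out Bik), the 3 most correlated genes are named. Some genes that this rule or the marker lists hold are not reported here. Positions and exon lengths are from a later GENCODE release on GRCm38, which held 53559 of the symbols. Promoter sequences are from RefSeq.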

Additional observations from a re-analysis of the deposited data

Results flagged for a closer look

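No member of the BCL2 family was called in the interaction of IFNγ and Oxali. In the regulator and downstream lists 5 genes were, by the interaction term of the edgeR fit, and were chosen here for that difference. At 2000 pg 4 of 14 tested regulators and 1 of 10 tested downstream genes were called, where 2.72% of all genes were. At 200 pg 1 of 14 and 0 of 10 were called, where 0.698% of all genes were. Stat3, a transcription factor that can raise Bcl2l1 and Mcl1, was at 61.0 and 58.5 CPM in Ctrl, 67.8 and 70.6 in IFN2000, 58.8 and 57.9 in Oxali, and 116 and 112 in Combo2000. Its interaction was 0.76 (SE 0.06, edgeR adjusted p = 3.07e-07) at 2000 pg and 0.36 (SE 0.06, edgeR adjusted p = 0.00718) at 200 pg. The value at 200 pg missed the threshold without Ctrl replicate 1 (0.10), IFN200 replicate 1 (0.0857), Oxali replicate 2 (0.059) or Combo200 replicate 3 (0.0579). Bcl2l1 and Mcl1 were not called in the interaction or in Combo2000 against Oxali, except that a length and GC correction called Bcl2l1 lower in the latter (-0.15, edgeR adjusted p = 0.00889).

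At 2000 pg the interaction was 0.28 for Jun (SE 0.06, edgeR adjusted p = 0.0222), 0.27 for Foxo1 (SE 0.07, edgeR adjusted p = 0.0387), -0.26 for Birc5 (SE 0.06, edgeR adjusted p = 0.0158) and -0.21 for Atf4 (SE 0.05, edgeR adjusted p = 0.0346). With the libraries that held markers of other cells left out, Birc5 (-0.23, adjusted p = 0.0533), Foxo1 (0.25, adjusted p = 0.125) and Atf4 (-0.21, adjusted p = 0.0521) were not called. Over 17 alternatives the call was lost in 16 for Foxo1, both other scalings and DESeq2 (0.34) among them, in 9 for Atf4, in 5 for Birc5 and in 5 for Jun, DESeq2 (0.0677) among them, and in none for Stat3. Without Ctrl replicate 1 none of these 4 genes was called (adjusted p = 0.0601 to 0.225). Both IFN2000 libraries, one of them with T cell markers, enter each of these values, and the part of those markers was not tested beyond leaving the libraries out.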

How the results depend on the processing

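The counts of members called in Oxali, Combo200 and Combo2000 against Ctrl, and in the combinations against IFNγ alone, stayed within 1.5 times under every alternative run, and the directions of Bcl2, Bax, Bid, Bcl2l11, Pmaip1 and Bik with Oxali did not change. A correction for gene length and GC content moved the median of all genes in Oxali against Ctrl from 0.02 to -0.11 on the log2 scale, and the share of calls that were higher from 51.5% to 39.6%. Under it Bax was at -1.16 and Bcl2l1 turned to -0.18 in Oxali (-0.18 with the replicate block too), to -0.21 in Combo200 against Ctrl (-0.19 with the block) and to -0.22 in Combo200 against IFN200 (-0.20 with the block). Relative to the median of all genes, Bcl2l1 in Oxali then lay at -0.075 and Bax at -1.050. Bcl2l1 in Combo200 lay at -0.092 against Ctrl and at -0.110 against IFN200 on that scale. Bak1 was called lower in Combo2000 against Ctrl with that correction (-0.34), and Foxo3, called higher with Oxali, turned to -0.0717 (-0.0721 with the block) and was not called.

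The number of members called in Combo200 against Oxali, 1 in the report, was 2 with no filter on low counts or with the correction, and 0 with DESeq2, with the replicate block, with the block and the correction, and without any 1 library (0 to 0). For Combo2000 against Combo200 it was 0 with DESeq2, with the block and without any 1 library (0 to 0). For Combo2000 against Oxali it was 5 with the correction. For IFN2000 against IFN200, 5 in the report, it was 3 with DESeq2, 2 with the block and the correction, 1 with both libraries that held markers of other cells left out, and 3 to 6 without 1 library. For IFN2000 against Ctrl it was 2 with those libraries left out and 1 to 4 without 1 library. The cause was not tested. Replicate numbers did not pair the libraries: deviations of same-numbered libraries correlated between -0.0456 and 0.017.

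The log2 ratio of pro-survival to effector plus BH3-only level against Ctrl was -0.31 in Oxali, -0.33 in Combo200, -0.40 in Combo2000 and -0.12 in IFN2000. It was -0.50, -0.53 and -0.58 in the first 3 with CPM not divided by length. Without Mcl1 it was -0.19, -0.22, -0.31 and -0.17. Without Pmaip1 it reversed to 0.31, 0.16 and 0.0423 in the groups with Oxali, and was -0.19 in IFN2000. Depth limits Bbc3 and Bik, which had at most 96 and 22 counts per library.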
